A study of Cucumis sativus with 4 samples.

Results

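The sex of a cucumber flower is set by a small group of genes, and 4 of them were chosen here by gene identifier: CsACS2 (Csa1G580750), CsACS1 (Csa6G496450), CsACS11 (Csa2G353460) and CsWIP1 (Csa4G290830). Of these 4, CsACS11 has a row among the 17180 genes of the expression table. CsACS2, CsACS1 and CsWIP1 have no row there, so their levels are not analysed here, and nothing is said of how strongly they were expressed. Messenger RNA was measured in young fruits of Cucumis sativus collected 4 days before anthesis, when the fruit is the ovary of a flower that has not opened. OX-29 is a transformed line of inbred R1407 that carries the coding sequence of CsFUL1, a MADS-box transcription factor gene, under the cauliflower mosaic virus 35S promoter, which is active in most plant tissues, and its fruits are short. WT is inbred R1407 without the construct, with long fruits. Each line gave 2 libraries, and no second transformed line was sampled, so what CsFUL1 does and what is peculiar to OX-29 cannot be told apart.

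Ethylene promotes female flowers in cucumber. Plants make it from S-adenosylmethionine by way of 1-aminocyclopropane-1-carboxylate (ACC), and ACC synthase, the enzyme family of CsACS11, CsACS2 and CsACS1, makes ACC in the step that usually limits the rate. CsACS11 is known as a gene expressed in the phloem of flower buds that are to become female, and plants that lack its activity bear male flowers only. CsACS2, the gene of the M locus, acts in the young carpel and stops the growth of stamens in female flowers. An additional copy of CsACS1 is known from the F locus of plants that bear mainly female flowers. CsWIP1 is a zinc finger transcription factor that represses the carpel, and CsACS11 is placed above it in the pathway. The names of the 4 genes come with the identifiers they were chosen by. The table gives identifiers only, and 0 of its identifiers matched the 23999 genes of the RefSeq table at hand, so the pairing of name and identifier was not checked against an annotation.

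CsACS11 fell in the ovaries of OX-29. It had 2.81 CPM in OX-29 replicate 1 and 3.19 CPM in OX-29 replicate 2, against 46.5 CPM in WT replicate 1 and 24.4 CPM in WT replicate 2. CPM scales the read count of a gene to a library of 1000000 reads. Both OX-29 libraries lay below both WT libraries. The mean was 3.00 ± 0.26 CPM in OX-29 and 35.5 ± 15.6 CPM in WT (SD, n = 2 each). On the log2(CPM + 0.5) scale the fold change, OX-29 minus WT, was -3.29 ± 0.37 (SE), with a 95% interval of -4.21 to -2.38 (limma, Benjamini-Hochberg adjusted p = 0.00134 over 16982 genes). The smallest gap between a WT and an OX-29 library was 2.76 on this log2 scale, and the largest was 3.83. An exact two-sided permutation test over the 4 libraries alone gave p = 0.333, the smallest that 2 against 2 libraries allow. The adjusted p thus rests on the spread that limma shares over all genes. So do the SE and the 95% interval, which are narrower than the spread of CsACS11 alone (residual SD 0.46) would give. In bulk tissue, fewer cells that express CsACS11 and less CsACS11 RNA per cell cannot be told apart. Markers of phloem, stamen, ovule and epidermis could not be formed from the identifiers, and the makeup of the fruits by cell type and the level of CsFUL1 were not checked.

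**Figure D1:**
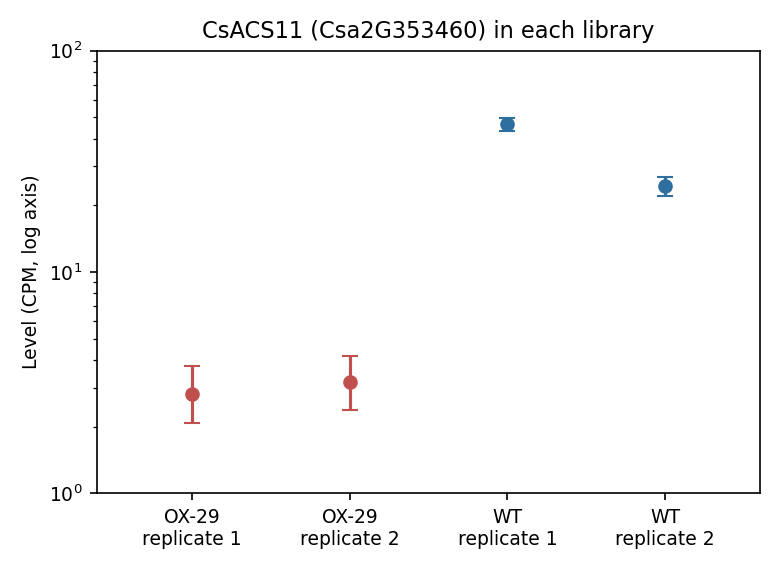
CsACS11 level in CPM on a log axis, with 1 point for each library, OX-29 in red and WT in blue, and bars for the exact 95% Poisson interval of the read count, which covers counting error only. The 2 OX-29 libraries sit at 2.81 and 3.19 CPM, and the 2 WT libraries at 46.5 and 24.4 CPM.

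The fall was large beside the counting error. CsACS11 was counted in 47 and 52 reads in OX-29 replicates 1 and 2, and in 922 and 412 reads in WT replicates 1 and 2. The exact 95% Poisson intervals of the OX-29 libraries, 2.07 to 3.74 CPM and 2.38 to 4.18 CPM, overlapped each other. Those of the WT libraries, 43.6 to 49.6 CPM and 22.1 to 26.9 CPM, overlapped neither each other nor the OX-29 libraries. Pooled over libraries, the CsACS11 read rate of OX-29 was 0.0824 times that of WT, with an exact 95% counting interval of 0.0665 to 0.101. This interval covers counting error in these libraries and not the spread between plants. Every OX-29 count stood well above 0, where 0 reads would allow 0.179 to 0.184 CPM (3 counts), so CsACS11 was still detected in OX-29 ovaries. How reads shared by near-identical ACC synthase copies were counted is not given in the sources used here, so reads of a close copy cannot be told apart from those of CsACS11.

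The replicates of WT differed from each other more than those of OX-29. WT replicate 1 had 1.90 times the CsACS11 level of WT replicate 2, a log2 difference of 0.91, and 87.4% of tested genes differed between the WT libraries by as much or less (median 0.34). Between the OX-29 libraries the ratio was 1.13, a log2 difference of 0.15, which lies below the median gene at 0.20. The log2 fold change was -2.84 with the lower WT library alone, without WT replicate 1, and -3.75 without WT replicate 2. A lone WT library has no spread of its own and is assumed to vary like the OX-29 pair. For CsACS11 the WT pair differed more than the OX-29 pair, so no p-value is given for these fits.

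The lines differed in a large share of all genes, and the fall of CsACS11 is to be read against that. Of all tested genes, 38.4% were called lower and 18.6% higher in OX-29 at the same threshold, and 52.2% had both OX-29 libraries below both WT libraries. A call of lower is therefore common in this comparison. The size of the fall was less common: CsACS11 had the 1025th lowest fold change of the 16982 tested genes, within the lowest 6.04%, and 7.59% of tested genes were called lower with a log2 fold change of -3 or less. The log2 fold change of the median gene was -0.38, so CsACS11 fell by 2.91 on the log2 scale relative to it. With median-of-ratios scaling, which brought the median gene to -0.03, the value of CsACS11 was -2.95 ± 0.36 on the log2 scale (SE; adjusted p = 0.0018 in limma), and 29.2% of tested genes were called lower and 27.3% higher.

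**Figure D2:**
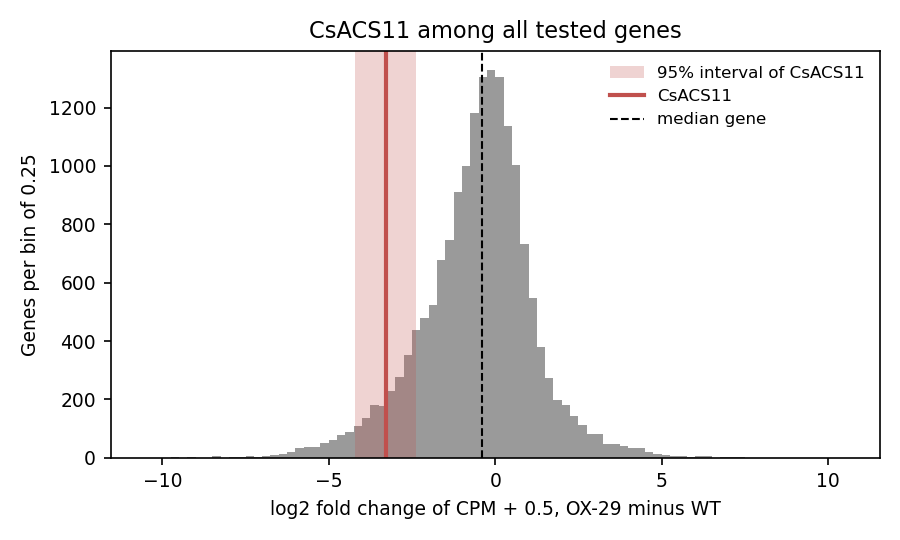
Number of tested genes by log2 fold change of CPM + 0.5, OX-29 minus WT, in bins of 0.25 (grey bars), with CsACS11 (red line), its 95% interval (red band) and the median gene (dashed line). CsACS11 at -3.29 lies in the lower tail, and its whole interval lies below the median gene at -0.38.

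The gene with the most similar levels to CsACS11 was Csa6G525350, for which no name is given. Likeness was measured as the root mean square difference of log2(CPM + 0.5) over the 4 libraries, and it was 0.13 for this gene. Csa6G525350 had 2.75 and 3.06 CPM in OX-29 replicates 1 and 2, against 45.2 and 29.2 CPM in WT replicates 1 and 2. The gene was picked for these values, so its log2 difference of -3.44 between the lines and its higher level in WT replicate 1 follow from the choice and are given as a description, with no test. Of 16981 genes compared, 7 lay within a root mean square difference of 0.25 and 117 within 0.5, so other genes had levels close to those of CsACS11 in all 4 libraries. CPM is not corrected for gene length, so like values do not mean like numbers of transcripts.

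The genes listed beside CsACS11 did not all move with it. In the cucumber naming scheme the digit of the identifier is the chromosome, here chromosome 2, and the number after G gives the order along it. Of the 5 listed genes on each side of CsACS11, 6 fell, 3 rose and 1 did not pass. Their log2 fold changes lay between -5.75 and 4.94, with a median of -1.38. The nearest listed gene on either side rose, with log2 fold changes of 2.33 ± 0.49 (SE) before CsACS11 and 0.61 ± 0.16 (SE) after it. The listed gene before CsACS11 is 50 identifier steps away (1 step is 10 in the number), and the one after it is 1 step away. Listed neighbours are therefore not always adjacent genes. Beyond the gene after CsACS11, the next 4 listed genes fell, with log2 fold changes between -5.75 and -1.65. Over chromosome 2 as a whole, 38.1% of 2054 tested genes were called lower and 18.1% higher. With median-of-ratios scaling, 4 of the 10 neighbours fell and 3 rose, where 29.2% of all tested genes were called lower and 27.3% higher. Around the identifiers of CsACS2, CsACS1 and CsWIP1, the 10 nearest listed genes held 6, 7 and 6 falls and 2, 1 and 0 rises, 1 gene beside CsWIP1 being under the filter, where 38.4% of all tested genes fell and 18.6% rose. With median-of-ratios scaling these counts were 6, 6 and 4 falls and 2, 1 and 0 rises, beside the 29.2% and 27.3% of all tested genes. The nearest listed genes before and after lay 50 and 600 identifier steps from CsACS2, 1 and 52 from CsACS1, and 1 and 1 from CsWIP1. The counts say nothing of the levels of the 3 genes themselves.

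**Figure D3:**
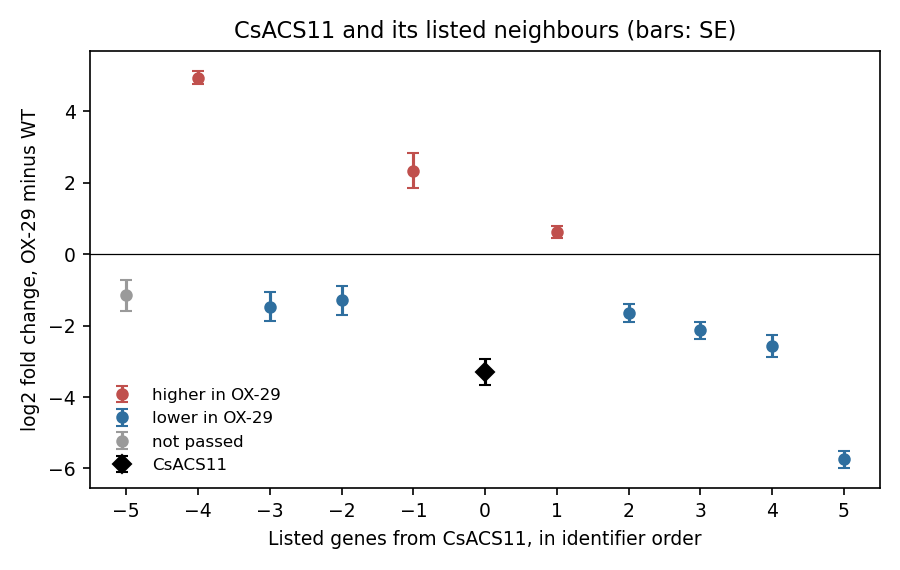
Log2 fold change, OX-29 minus WT, of CsACS11 (black diamond at 0) and of the 5 listed genes on each side in identifier order, with SE bars; genes higher in OX-29 are red, genes lower in OX-29 are blue and the gene that did not pass is grey. The nearest listed gene on each side, 50 identifier steps before and 1 step after, lies above 0, while CsACS11 lies at -3.29.

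CsACS11 fell in OX-29 under every setting tried for it. Its log2 fold change lay between -3.75 and -2.28 over 17 alternatives, all drawn from the same 4 libraries. Those that change only the filter, the variance model, the block or the threshold keep -3.29 by construction, so they do not test the direction. Where each line kept 2 libraries, the highest adjusted p was 0.00487 (limma), under quantile normalization. The value nearest 0 came with a pseudocount of 5 CPM, which is above both OX-29 levels and narrows the fold by construction. On whole reads, edgeR's quasi-likelihood test gave a log2 fold change of -3.19 (adjusted p = 0.00217), with 29.2% of genes called lower and 26.0% higher. DESeq2 gave -3.18 (adjusted p = 1.34e-11), with 5047 genes called lower and 4612 higher. The far lower p of DESeq2 rests on the same 4 libraries and is not stronger evidence. The other genes of ethylene synthesis and response, which were to be listed from gene descriptions, could not be formed into a list, as no identifier was paired with a description. No ratio of one sex determination gene to another could be given, since CsACS11 alone has values.

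**Figure D4:**
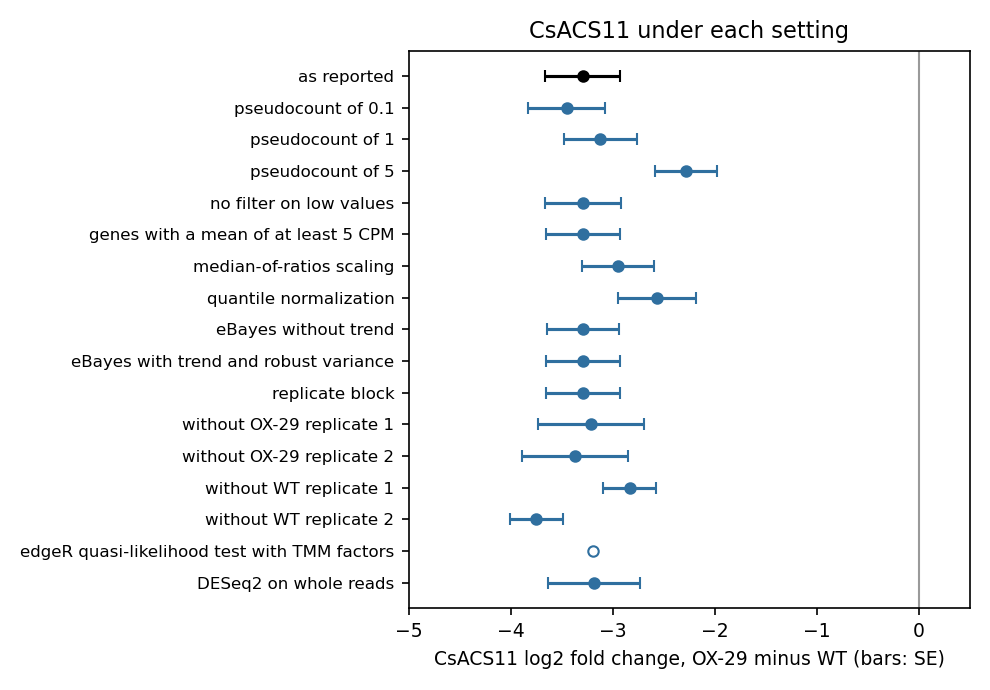
CsACS11 log2 fold change, OX-29 minus WT, as reported (black) and under each processing alternative (blue), with SE bars where the tool gives one (the open point has none). All points lie between -3.75 and -2.28, to the left of the line at 0.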

How the data were processed

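RNA from young fruits of OX-29 and WT, 2 libraries each, was selected with oligo(dT) beads and sequenced as paired ends, per the labels' protocols. TopHat and HTSeq are named in the submitters' processing notes; the sources used here give no version, strand setting, genome build or annotation. The deposited values are CPM, scaled to 1000000 over the listed genes, and in each listed gene 2 libraries or more reach 0.897 CPM. All CPM were whole multiples of 1 read (100% within 0.001 reads), and the recovered reads total 16719990 (OX-29 replicate 1), 16326412 (OX-29 replicate 2), 19824797 (WT replicate 1) and 16858940 (WT replicate 2). Intervals and 3-count limits cover counting error only. Columns left out numbered 0.

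The members, the lists and the tests were chosen with earlier results of these data known. Lines were compared with limma 3.58.1 under R 4.3.3 (eBayes with trend) on log2(CPM + 0.5), with line as the only term, for genes whose mean reached 1 CPM, and a threshold of an adjusted p under 0.05. The count tests were edgeR 4.0.16 and DESeq2 1.42.0 on recovered reads. The limma step was run on simulated data. That run moved equal numbers of genes up and down, so it cannot speak to the unbalanced calls here. Named genes are the 4 chosen ones and, for each one tested, the gene most alike in level; neighbours are given as counts, with the nearest gene on each side described after its values were seen. The design text calls the replicates biological, but the number of plants behind a library is not stated, and p-values reflect only the spread among these libraries, which may be technical. No sequence is shown, as none was at hand.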

Additional observations from a re-analysis of the deposited data

How the results depend on the processing

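The fall of CsACS11 kept its direction in all 17 alternatives, and its side of the threshold in those where each line kept 2 libraries. The alternatives in filter, variance model, block and threshold leave its value at -3.29 by construction, so their direction was fixed in advance. With 1 library left out at a time, the log2 fold change of CsACS11 was -3.75 to -2.84. The counts over all genes moved more: 6522 genes were lower and 3155 higher in OX-29 as reported. With 1 library left out there were 4096 to 6313 lower and 1578 to 3139 higher, with the low counts without OX-29 replicate 1 and, at 4166 lower and 1707 higher, without OX-29 replicate 2. An adjusted p under 0.01 gave 4305 lower and 1833 higher by construction. The balance of the calls depended on scaling. It came to 4955 lower and 4628 higher under median-of-ratios scaling, and it turned round under quantile normalization, with 4121 lower and 4689 higher and a median gene at 0.08; the cause was not tested. CsACS11 was at -2.57 under quantile normalization. Both lines use the numbers 1 and 2 for their replicates, but no label pairs them, and replicate differences did not go together across genes (correlation -0.02). With a replicate block 6390 genes were lower and 3030 higher, and CsACS11 kept -3.29 (limma adjusted p = 0.000381). The alternatives planned for CsACS2, CsACS1, CsWIP1 and for ratios between the 4 genes were not run, as CsACS11 alone has values. In OX-29 the depth of 47 and 52 CsACS11 reads limits the precision of its level.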
